A study of Mus musculus with 16 samples.

Results

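The Bcl2 family decides whether mitochondria stay intact, and its transcripts are described here in cultured mouse cortical neurons that expressed either a c-Fos shRNA or a control one and were stimulated with KCl. The family was taken as a named set of 10 genes, Bcl2, Bcl2l1, Bcl2l11, Bax, Bak1, Bbc3, Pmaip1, Mcl1, Bad and Bid, through the gene symbols of the array's platform annotation. That annotation named 9 of the 10 among 18193 genes, with 29 probe sets. Bax, an effector of the family, had no probe set named for it alone in the annotation used here and was not analysed here. Each of the 9 genes was represented by its brightest probe set, and all 9 were above the filter on dim genes, the 30th percentile of mean signal. Of the 29 probe sets, 26 were above that filter.

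The 16 Affymetrix arrays held 8 groups of 2, one for each shRNA at each of 4 KCl times. Every culture came from cortices of C57BL/6 embryos at embryonic day 16.5 and, on day 5 in vitro, took up lentivirus for 6 h with polybrene at 6 µg/ml. The virus expressed an shRNA to c-Fos in one arm and an shRNA to firefly luciferase in the control arm. On day 7 all cultures were silenced, and KCl was then given for 0, 1, 3 or 6 h. The 0 h groups are therefore silenced neurons, and no uninfected culture was part of the comparison. KCl depolarises neurons and opens their calcium channels, and the comparison asks which transcripts follow that stimulus and which of them differ when Fos is knocked down. The labels name 1 shRNA against c-Fos, so lowered Fos and any other action of that shRNA cannot be told apart. The arrays of a group are called biological replicates, but separate dissections are not stated, and a p-value here refers to the spread among the arrays alone. In bulk RNA, fewer cells of a type and less RNA per cell cannot be told apart.

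Proteins of the Bcl2 family meet at the outer mitochondrial membrane. Bcl2, Bcl2l1 (Bcl-xL) and Mcl1 are pro-survival members that hold the others in check; Bak1 and Bax are the effectors that open the membrane and release cytochrome c; Bcl2l11 (Bim), Bbc3 (Puma), Pmaip1 (Noxa), Bad and Bid are BH3-only proteins that start the process by binding the pro-survival members or the effectors. In neurons, loss of activity or of trophic support is known to raise several BH3-only genes, and much of the family's control also takes place on the proteins, which arrays do not measure.

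Bcl2l11 and Bcl2 were the BH3-only and the pro-survival gene with the largest average differences between the shRNAs, in opposite directions, so their upstream sequences are shown. Each is the 250 bases before the outermost annotated start, 5′ to 3′ on the gene's own strand, from RefSeq on build GRCm38.p6. Capitals mark the letters of the searched motifs. The Bcl2l11 window is chr2:128125788-128126037 on the plus strand and the Bcl2 window is chr1:106714291-106714540 on the minus strand.
Bcl2l11: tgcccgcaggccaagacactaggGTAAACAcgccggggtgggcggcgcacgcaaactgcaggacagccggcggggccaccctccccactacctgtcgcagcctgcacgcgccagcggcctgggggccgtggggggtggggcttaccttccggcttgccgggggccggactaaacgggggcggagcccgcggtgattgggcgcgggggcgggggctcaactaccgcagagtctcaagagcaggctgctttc
Bcl2: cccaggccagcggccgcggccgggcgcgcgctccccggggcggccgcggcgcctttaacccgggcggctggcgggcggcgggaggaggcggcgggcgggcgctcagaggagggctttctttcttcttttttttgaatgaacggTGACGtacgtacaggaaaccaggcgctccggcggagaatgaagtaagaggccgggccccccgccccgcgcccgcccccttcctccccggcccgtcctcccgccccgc
The Bcl2l11 window held GTAAACA, a forkhead-type motif, from 227 to 221 bases before the start. The Bcl2 window held TGACG, the core of the cAMP response element, from 107 to 103 bases before the start. Over 32851 annotated windows of 250 bases, 3.17% held the forkhead motif and 17.8% the TGACG core on either strand. The search covered 15 windows of 9 members, Bax included. Pmaip1 was left out of the search, so the member counts here say nothing of its upstream sequence. The AP-1 motif (TGACTCA or TGAGTCA, which Fos and Jun proteins bind) was in 0 of the 15, against 4.46% of all windows. The full element TGACGTCA, which contains that core, was in 0 member windows against 1.55% of all, and the CArG box was in 0 against 1.47%. The TGACG core was in 2 member windows, of Bcl2 and Bbc3, and the forkhead motif was in 2, of Bcl2l11 and Bbc3. These matches describe letters in short windows and say nothing of binding.

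Fos itself, the target, checked the labels. Its mean intensity was 246 in silenced control neurons and 135 with c-Fos shRNA, and after KCl it was 11900 to 14700 in the control groups and 3240 to 8680 in the c-Fos groups. The knockdown was thus partial, and Fos still rose with KCl in both arms. Replicate arrays of a group correlated at 0.9906 to 0.9939. Summed intensities of the fixed marker lists overlapped between the arms, with neuronal markers at 81176 to 92306 on control arrays and 78407 to 87734 on c-Fos arrays, and astrocyte markers at 18606 to 24176 and 16415 to 21364. Oligodendrocyte lineage markers summed to 9179 to 17570 and 10438 to 16359, markers of dividing cells to 9263 to 12386 and 9200 to 11985, and vascular and fibroblast markers to 575 to 1027 and 496 to 895. Microglial markers summed to 322 to 536 and 324 to 469, with 2 of 8 above the filter. Single markers did differ on the average of the times. With c-Fos shRNA 3 of 9 neuronal markers were higher and 5 lower, and 1 of 8 astrocyte markers was higher and 3 lower. Of all tested genes 25.2% were higher and 22.7% lower. Among the tested markers of dividing cells 1 of 7 was higher and 2 lower. Lower were also 1 of 2 microglial, 1 of 6 oligodendrocyte lineage and 1 of 6 vascular and fibroblast markers, with none higher. The part of these cell types in the results below was not tested.

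**Figure D1:**
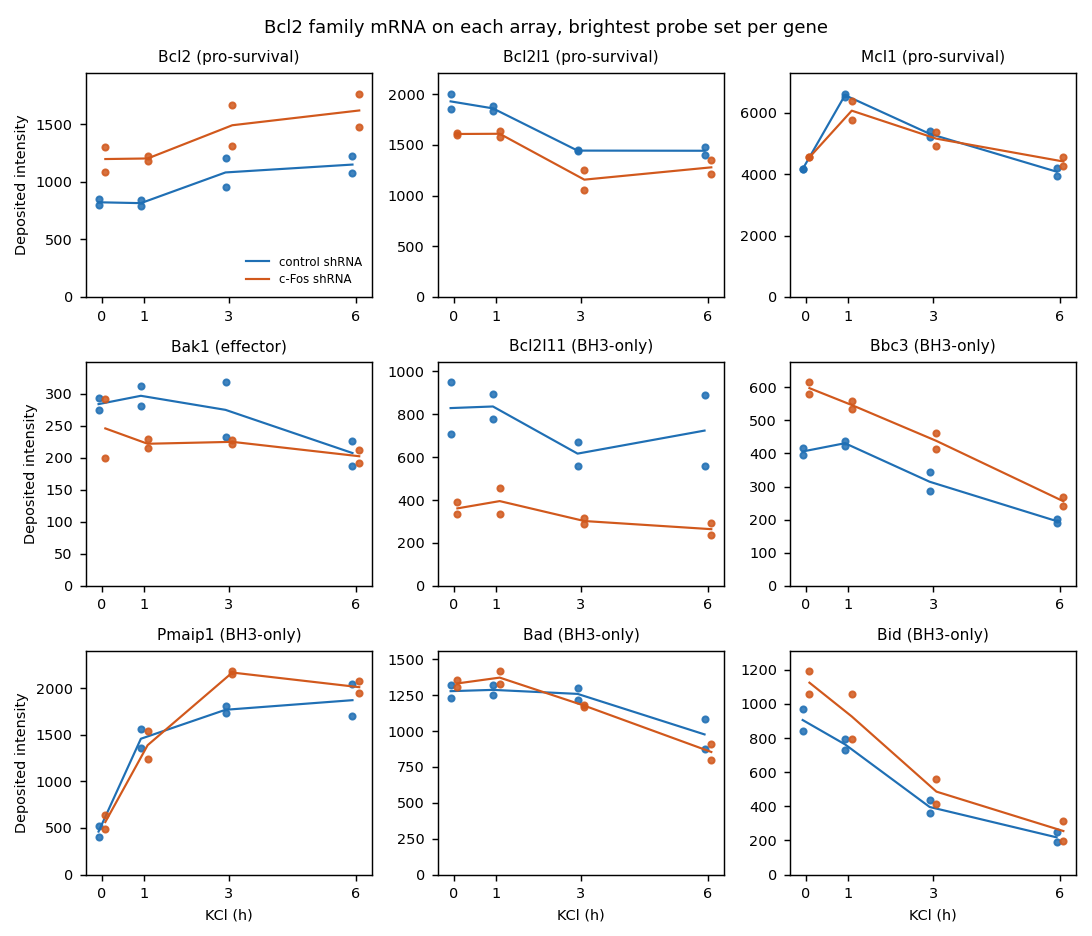
Deposited intensity of the brightest probe set of each of the 9 family genes on every array (points), against hours of KCl. Lines are group means, control and c-Fos shRNA are in separate colours, and each gene has its own linear axis. Pmaip1 climbed from 461 to 1870 and Bid declined from 905 to 218 in the control arm, while the c-Fos points of Bcl2l11 lay under the control points throughout.

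KCl moved the family early through 2 genes and later through 6. Changes were tested with limma on quantile-normalized log2(intensity + 16), over all 8 groups at once, and a gene was said to rise, fall or differ where its p, adjusted by Benjamini-Hochberg over all tested genes, was under 0.05. Errors are standard errors of the log2 value, and a bare number in brackets is an adjusted p, after the log2 value where both stand there. At 1 h in control neurons, Pmaip1 and Mcl1 rose and none of the 9 fell, where 2.3% of 13915 tested genes rose and 0.819% fell. At 3 h, Pmaip1 and Mcl1 were still up while Bcl2l1, Bbc3 and Bid had fallen, 2 and 3 of 9 genes against backgrounds of 11% and 19.3%. At 6 h, Pmaip1 and Bcl2 were up and Bcl2l1, Bbc3, Bad and Bid were down, 2 and 4 of 9 against 16.7% and 27.4%. The c-Fos arm gave Pmaip1 and Mcl1 up at 1 h, 2 of 9 with none down, beside 1.96% and 1.42% of all genes. At 3 h Pmaip1 was up and Bcl2l1, Bbc3 and Bid were down, 1 and 3 of 9 beside 9.9% and 18.3%, and at 6 h Pmaip1 and Bcl2 were up and Bcl2l1, Bbc3, Bad and Bid were down, 2 and 4 of 9 beside 16.1% and 24.9%. The median log2 change of the 9 genes at 6 h was -0.36 in control and -0.33 in c-Fos neurons, and the median of all tested genes was -0.07 and -0.06. The 3 KCl changes of an arm share their 0 h arrays. At 1 h in control neurons 73.7% of all calls were rises, and 85.8% when the arrays were not normalized.

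**Figure D2:**
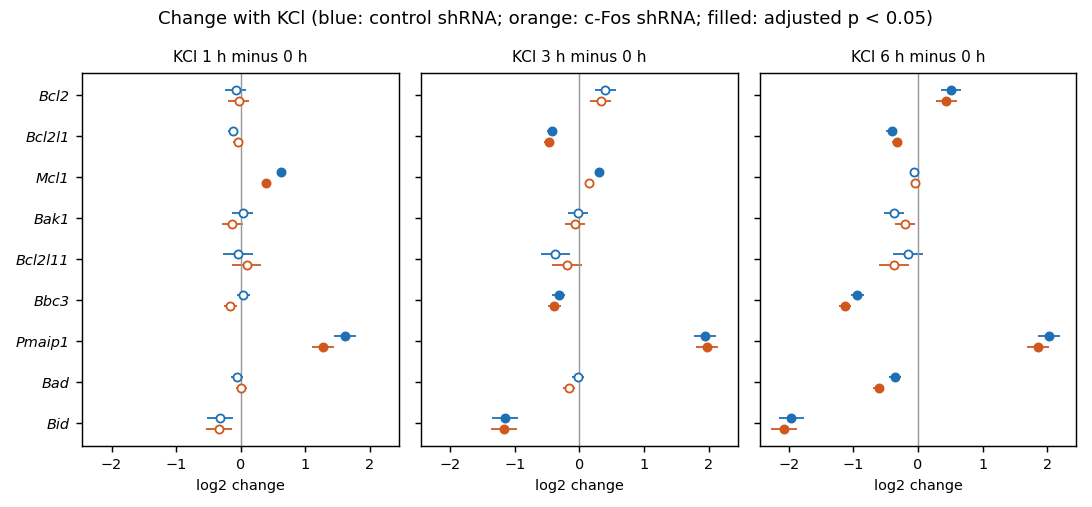
Log2 change of each family gene after 1, 3 and 6 h of KCl against 0 h (points, with standard errors as bars), by shRNA, with filled symbols for changes at an adjusted p under 0.05. Pmaip1 stood between 1.27 and 2.03 and Bid reached -1.96 and -2.07 at 6 h.

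Among the pro-survival genes, Mcl1, whose protein is short-lived and rapidly replaced, was the early responder. Its control arrays read 4163 and 4178 at 0 h, 6633 and 6527 at 1 h, 5224 and 5417 at 3 h, then 3958 and 4214 at 6 h. With c-Fos shRNA they read 4556 and 4552, then 5770 and 6381, then 4932 and 5393, and finally 4274 and 4561. In both arms the 1 h arrays were above all others of the arm, and the 6 h arrays overlapped the silenced ones. Mcl1 rose by 0.63 ± 0.06 on the log2 scale (SE, adjusted p = 2.51e-05) at 1 h and 0.30 ± 0.06 (adjusted p = 0.00134) at 3 h in control neurons. The rise with c-Fos shRNA was 0.39 ± 0.06 at 1 h (adjusted p = 0.00146), and 0.0644 when only the arrays of both groups were fitted. At 3 h the value was 0.15 ± 0.06, with an adjusted p of 0.0707, and 0.022 in the fit with the replicate number as a block. The 6 h values were -0.07 and -0.05, and neither passed the test.

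Bcl2, the family's founding survival gene, rose late. Control arrays held 848 and 799 before KCl, 844 and 788 at 1 h, 1212 and 954 at 3 h, then 1223 and 1080. The c-Fos arrays held 1308 and 1091, 1228 and 1181, 1670 and 1317, and 1769 and 1475 at the same times. Within each arm both 6 h arrays exceeded both 0 h arrays, by 0.51 ± 0.16 in control (adjusted p = 0.0246) and 0.44 ± 0.16 in c-Fos neurons (adjusted p = 0.0477). Replicate 1 was the higher array in 8 of 8 groups for this gene. At 3 h the values were 0.40 and 0.33 with adjusted p of 0.0913 and 0.174, and with the replicate number as a block they were 0.000975 and 0.00453. The 6 h call in control neurons was lost without the 0 h replicate 1 (0.56, adjusted p = 0.0535), the 0 h replicate 2 (0.45, 0.118) or the 6 h replicate 1 (0.41, 0.149), and that in c-Fos neurons without its 0 h replicate 2 (0.26, 0.347) or 6 h replicate 1 (0.28, 0.31). The latter was kept in 5 of 11 other settings. With the probe sets averaged it was 0.25 (0.291), and in the fit over probe sets 0 of 5 Bcl2 probe sets passed, the brightest at 0.0581.

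Bcl2l1, whose long product Bcl-xL maintains mature neurons, declined. Its arrays read 1852 and 2006 in silenced control neurons, 1836 and 1884 at 1 h, 1438 and 1449 at 3 h, then 1479 and 1405 at 6 h. In the c-Fos arm they read 1594 and 1621, 1582 and 1637, 1058 and 1256, and 1209 and 1348. All 3 h and 6 h arrays were below all 0 h and 1 h arrays of their arm. The log2 changes were -0.42 ± 0.08 and -0.41 ± 0.08 in control neurons at 3 and 6 h (adjusted p = 0.00184 and 0.00143), and -0.47 ± 0.08 and -0.33 ± 0.08 with c-Fos shRNA (0.00104 and 0.00748). Without the c-Fos 6 h replicate 1 the last of these was -0.28, with an adjusted p of 0.0629. With all probe sets of Bcl2l1 averaged, the 3 h changes were -0.24 in control and -0.23 in c-Fos neurons (0.141 and 0.172) and the c-Fos 6 h change was -0.22 (0.155), none of them past the threshold.

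Bak1, the effector that could be read, stood between 188 and 318 on every array and had the narrowest range of group means in the family, 0.43 on the log2 scale. No KCl change passed the test, with values from -0.37 to 0.03 in control and from -0.20 to -0.07 in c-Fos neurons. Its 2 control arrays at 6 h, 188 and 227, were both below the silenced ones, 293 and 275, and that difference of -0.37 ± 0.16 had an adjusted p of 0.0763, or 0.0225 with the replicate number as a block. With both Bak1 probe sets averaged it was -0.42 (0.0319).

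Of the BH3-only genes, Pmaip1 made the largest rise. Control arrays went from 524 and 398 to 1558 and 1357 at 1 h, 1805 and 1732 at 3 h, then 1701 and 2042 at 6 h. The c-Fos arrays went from 638 and 489 to 1538 and 1239, 2183 and 2153, and 1950 and 2072. Every stimulated array was above every silenced one. In control neurons the log2 change was 1.61 ± 0.17, 1.94 ± 0.17 and 2.03 ± 0.17 at 1, 3 and 6 h (adjusted p = 0.000104, 3.76e-06 and 1.68e-06), or 3.05, 3.84 and 4.08 times on the scale with the constant of 16 added. With c-Fos shRNA it was 1.27, 1.97 and 1.86, each ± 0.17 (adjusted p = 0.000828, 4.06e-06 and 4.15e-06). Noxa, the product of Pmaip1, binds Mcl1 by preference, and Pmaip1 was still raised at 6 h, when the Mcl1 arrays overlapped those of silenced neurons.

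Bid, which links death receptors to mitochondria once it is cut by caspase-8, made the largest fall. Control arrays read 842 and 969, then 729 and 797, 358 and 434, and 189 and 247 at 0, 1, 3 and 6 h. The c-Fos arrays read 1057 and 1192, 794 and 1059, 412 and 560, and 196 and 314. The group means of each arm stepped down with time, and from 3 h on no array overlapped the silenced ones. The changes at 3 and 6 h were -1.15 ± 0.20 and -1.96 ± 0.20 in control neurons (adjusted p = 0.000757 and 6.94e-06) and -1.17 ± 0.20 and -2.07 ± 0.20 in c-Fos neurons (0.000721 and 5.81e-06). At 6 h, 0.257 and 0.238 of the silenced level was left in the control and c-Fos arms, on the scale with the constant added. The 1 h values of -0.32 and -0.34 did not pass the test, and in the c-Fos arm a 1 h array was level with the silenced ones. Replicate 2 was the higher array in 8 of 8 groups.

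Bbc3, a p53 and FoxO target whose product binds all the pro-survival members, also fell. Its control arrays read 396 and 416 at 0 h, 438 and 424 at 1 h, 286 and 343 at 3 h, then 190 and 201 at 6 h. With c-Fos shRNA the arrays read 580 and 615, 560 and 533, 415 and 461, and 242 and 269. From 3 h on all arrays lay under the silenced ones of their arm. The 6 h changes were -0.94 ± 0.10 and -1.13 ± 0.10 (adjusted p = 9.82e-06 and 3.02e-06). At 3 h they were -0.32 ± 0.10 and -0.39 ± 0.10 (0.0296 and 0.0104). The 3 h call in control neurons was lost without the 0 h replicate 1 (-0.34, 0.0791), the 0 h replicate 2 (-0.29, 0.131) or the 3 h replicate 1 (-0.20, 0.264), and in c-Fos neurons without the 0 h replicate 1 (-0.37, 0.0635) or the 3 h replicate 1 (-0.32, 0.0978). The control 3 h call was also lost when only the arrays compared were fitted (0.168).

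Bad, a sensor of growth-factor signalling that is held inactive by phosphorylation, was called at 6 h and not at 1 or 3 h. Control arrays were 1233 and 1324 at 0 h, between 1216 and 1323 at 1 and 3 h, and 872 and 1082 at 6 h. The c-Fos arrays were 1306 and 1359, 1328 and 1418, 1184 and 1171, and 800 and 909. The 6 h arrays of both arms were under all the others. The falls were -0.36 ± 0.09 (adjusted p = 0.00658) and -0.61 ± 0.09 (0.000189). In control neurons the call was lost without the 0 h replicate 2 (-0.31, 0.0544) or the 6 h replicate 1 (-0.23, 0.0828), and when only the arrays compared were fitted (0.0641).

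Bcl2l11, whose product Bim binds every pro-survival member and the effectors, gave no KCl call on its brightest probe set. Its control arrays were 949 and 709 at 0 h, 894 and 779 at 1 h, 672 and 561 at 3 h, then 890 and 558 at 6 h. With c-Fos shRNA they were 333 and 389, 455 and 335, 289 and 315, and 291 and 237. The control replicates at 6 h were far apart, and the KCl values ran from -0.37 to -0.04 in control and from -0.37 to 0.09 in c-Fos neurons, each with an SE of 0.23. The value of -0.37 at 6 h with c-Fos shRNA had an adjusted p of 0.239, or 0.0446 with the replicate number as a block.

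Between the shRNAs, Bcl2l11 differed most in the family. All 8 c-Fos arrays, from 237 to 455, were below all 8 control arrays, from 558 to 949. The log2 difference, c-Fos minus control, was -1.17 ± 0.23 in silenced neurons (adjusted p = 0.00336), -1.04 after 1 h (0.00734), -0.99 after 3 h (0.0085) and -1.39 after 6 h (0.00113). The average over the 4 times was -1.15 ± 0.12 (adjusted p = 5.25e-06), or 0.451 of the control level, and it stayed past the threshold under all 27 alternatives run, 11 other settings and 16 fits without an array. At single times the 1 h call was lost without the c-Fos replicate 2 (-0.82, 0.0696) or the control replicate 1 (-0.93, 0.0662), and the 3 h call without the c-Fos replicate 1 (-0.94, 0.0564) or the control replicate 1 (-0.86, 0.0785). The difference was thus present in silenced neurons, before KCl was given.

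Bbc3 went the other way. Its c-Fos arrays were above the control arrays of the same time at all 4 times, by 0.55 ± 0.10 (adjusted p = 0.00164), 0.35 (0.0243), 0.48 (0.00383) and 0.37 (0.0187) on the log2 scale. The average was 0.44 ± 0.05 (adjusted p = 1.3e-05), and it was past the threshold under all 27 alternatives. Leaving out any of the 4 arrays ended the call at 1 h, with adjusted p from 0.0603 to 0.132, and at 6 h, from 0.052 to 0.0929. At 3 h it was lost without the control replicate 1 (0.36, 0.0557). Fitting only the arrays compared also ended the calls at 1, 3 and 6 h (0.119, 0.0599 and 0.153), and leaving the arrays unnormalized that at 1 h (0.0639). Bbc3 was thus higher with c-Fos shRNA while it fell with KCl in both arms.

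Bcl2 was higher with c-Fos shRNA as well, and the arrays of the arms were separated at each time. The differences were 0.53 ± 0.16 in silenced neurons (adjusted p = 0.0348), 0.59 after 1 h (0.0224), 0.47 after 3 h (0.0606) and 0.47 after 6 h (0.0566), and the average was 0.52 ± 0.08 (0.000217). The 3 h and 6 h differences passed with the replicate number as a block, at 0.00032 and 0.000299. Leaving out any of its 4 arrays ended the 1 h call (0.0674 to 0.116). The 0 h call was lost without the c-Fos replicate 1 (0.35, 0.267), the control replicate 1 (0.59, 0.0899) or the control replicate 2 (0.48, 0.146). When all 5 probe sets of the gene were averaged, the difference over the 4 times was 0.16 with an adjusted p of 0.157, and the 0 h and 1 h differences were 0.21 and 0.18 (0.464 and 0.55). With no intensity trend the 0 h difference had an adjusted p of 0.0512.

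Bcl2l1 was lower with c-Fos shRNA on every pair of groups, by -0.26 ± 0.08 at 0 h (adjusted p = 0.0417), -0.18 at 1 h (0.148), -0.30 at 3 h (0.0192), -0.17 at 6 h (0.163) and -0.23 ± 0.04 on average (0.000578). The 0 h call was lost without any of the 4 arrays (0.0723 to 0.206), and the 3 h call without the c-Fos replicate 1 (-0.19, 0.197), the control replicate 1 (-0.31, 0.0871) or the control replicate 2 (-0.30, 0.0762). With all 4 probe sets averaged the difference over the times was -0.08, with an adjusted p of 0.313. The 0 h call was kept in 5 of 11 other settings and the 3 h call in 9. The pro-survival genes thus did not move as one, since Bcl2 was higher and Bcl2l1 lower.

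The other members differed less. Bak1 was lower on average by -0.21 ± 0.08 (adjusted p = 0.0436) and Bid higher by 0.27 ± 0.10 (0.042). Of 16 fits that each left out an array, the Bak1 call was kept in 3, with values from -0.23 to -0.16 where it was lost, and the Bid call in 6, with 0.21 to 0.28. Each was kept in 6 of 11 other settings, and with all probe sets of a gene averaged Bak1 was at -0.08 (0.417) and Bid at 0.22 (0.0635). In the fit with the replicate number as a block, Bid also passed at 0, 1 and 3 h (0.30, 0.29 and 0.28, with adjusted p of 0.0256, 0.0325 and 0.0367). That fit also passed Bak1 at 1 h (-0.36, 0.0394), Mcl1 and Bad at 6 h (0.14 and -0.20, 0.0312 and 0.0406) and Pmaip1 on average (0.17, 0.0329). Without the block the average differences of Pmaip1, Mcl1 and Bad did not pass, with 95% intervals from -0.02 to 0.36, from -0.04 to 0.09 and from -0.13 to 0.07. With all 6 Mcl1 probe sets averaged, also without the block, the average of that gene turned to -0.10 (0.0223) and its 1 h difference was -0.27 (0.013). With arrays shifted to one median, Mcl1 passed at 0 h (0.17, 0.0468). The average of Pmaip1 passed without the c-Fos 0 h replicate 2 (0.23, 0.0288), and Bad at 6 h without the control 6 h replicate 1 (-0.33, 0.0411).

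Counted over the family, 2 of 9 genes were higher and 2 lower with c-Fos shRNA at 0 h, where 12% and 10.3% of all tested genes were. At 1 h the counts were 2 and 1 beside 10.8% and 9.98%, at 3 h 1 and 2 beside 12.4% and 10.9%, and at 6 h 1 and 1 beside 13.4% and 10.4%. On the average of the times 3 were higher and 3 lower, beside 25.2% and 22.7%. The median log2 difference of the 9 genes on that average was 0.02, the same as over all genes. With this many genes called between the arms, a call alone sets no member apart.

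**Figure D3:**
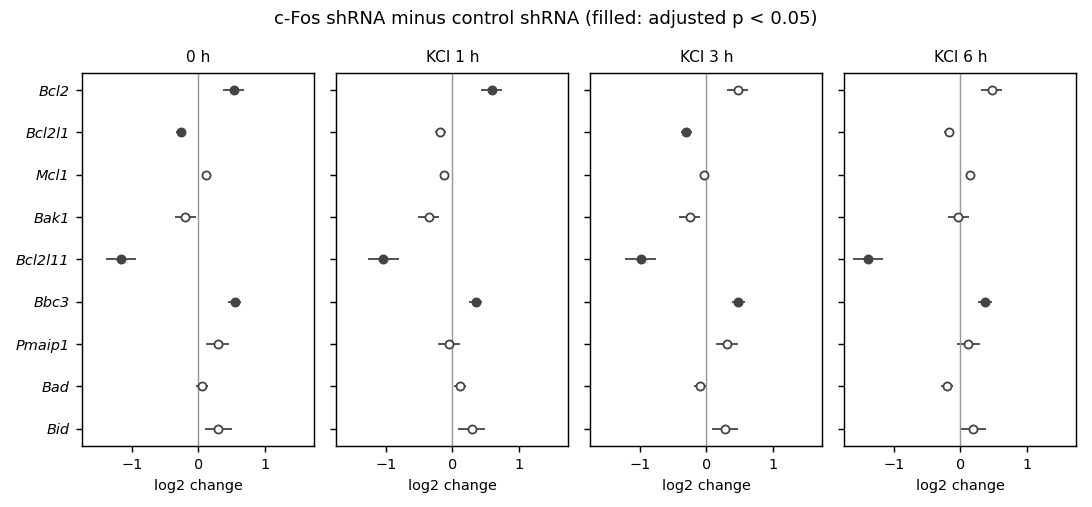
Log2 difference between c-Fos and control shRNA for each family gene at 0, 1, 3 and 6 h of KCl. Bars are standard errors, and filled symbols mark an adjusted p under 0.05. Bcl2l11 lay between -1.39 and -0.99 at every time, Bbc3 and Bcl2 lay above 0 and Bcl2l1 below it.

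The KCl response itself was compared between the arms by the difference of the changes, c-Fos minus control. limma called 0 of 9 genes at 1, 3 and 6 h and 0 in the F test over the 3 times, and at an unadjusted p under 0.05 it gave 1, 0 and 0 genes at the single times. Of all genes, 0.0431%, 0.402% and 1.24% were called at 1, 3 and 6 h and 0.862% in the F test. All 9 intervals (95%, unadjusted) lay within 1 of 0 on the log2 scale at each time. They reached from -0.87 (Pmaip1) to 0.85 (Bcl2l11) at 1 h, from -0.64 (Bid) to 0.90 (Bcl2l11) at 3 h and from -0.94 (Bcl2l11) to 0.65 (Bak1) at 6 h. A difference of 2-fold in the KCl response was thus outside each of these intervals, which cover the brightest probe sets alone. Dimmer probe sets could have larger errors, as with 0.23 ± 0.49 at 6 h for 1426334_a_at of Bcl2l11.

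On the brightest probe sets, the gene with the unadjusted p under 0.05 was Mcl1. Its 1 h difference was -0.24 ± 0.08, with an interval from -0.41 to -0.06 and an adjusted p of 1, and its F test had an adjusted p of 0.305. With the replicate number as a block that F test had an adjusted p of 0.0492, in a fit that called 10.1% of all genes. The 1 h difference was below 0 on all 6 Mcl1 probe sets, from -0.52 to -0.24, with no adjusted p under 0.599. These probe sets read the same RNA, and 3 of them are of the kind that can bind related sequences. For Bcl2l11, the dimmer probe set 1435448_at had a 6 h difference of -0.56 ± 0.17, with an adjusted p of 0.196 in the fit over probe sets.

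Several members had more than 1 probe set, and for some of them the probe sets disagreed. These were tested in a second fit, over 26083 probe sets. For Bcl2l11, probe sets 1456005_a_at, 1435448_at and 1435449_at were lower with c-Fos shRNA on average, by -1.15, -0.90 and -0.96 (adjusted p = 9.65e-06, 2.36e-07 and 0.000373). The dim 1426334_a_at gave -0.29 (0.212), and the untested 1456006_at gave -0.63. With KCl at 6 h in c-Fos neurons 1426334_a_at rose, by 1.17 (0.0205), from a mean intensity of 34.4 ± 20.6 to 92.6 ± 14.6 (SD, n = 2), while 1435448_at fell by 0.62 (0.00158), from 344 ± 9.43 to 211 ± 18.5. In control neurons 1426334_a_at gave 0.94 at 6 h (0.0509), from 49.6 ± 5.47 to 112 ± 40.6. There 1435448_at fell by 0.37 at 3 h (0.0384) but was not called at 6 h (-0.06, 0.724). The probe sets thus agreed on the arms for 3 of 4 tested and parted on KCl.

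For Mcl1, 5 of 6 probe sets rose at 1 h in control neurons, by 0.46 to 0.96, and 4 of 6 in c-Fos neurons, by 0.39 to 0.45. The dimmest, 1416881_at, followed another course in control neurons, with 0.47 (0.506), 0.68 (0.0464) and 0.70 (0.0297) at 1, 3 and 6 h. It was lower with c-Fos shRNA on average by -0.42 (0.0103), as was 1448503_at by -0.21 (0.00601), while the other 4 were between -0.01 and 0.02. Of those 4, the 1437527_x_at, 1456243_x_at and 1456381_x_at probe sets read higher in the silenced c-Fos group, by 0.21, 0.25 and 0.28 (0.0485, 0.0388 and 0.0218), and 1456381_x_at was lower at 1 h, by -0.24 (0.0487).

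All 3 Bid probe sets fell at 3 and 6 h in both arms, by -1.96, -1.21 and -1.17 at 6 h in control neurons and by -2.07, -1.02 and -1.24 in c-Fos neurons. For Bcl2 the higher level with c-Fos shRNA was called on 1457687_at and 1437122_at (0.52 and 0.46, 0.000339 and 0.0113) and not on the other 3, with -0.03, 0.03 and -0.18. Of the Bcl2l1 probe sets, 1420888_at and 1420887_a_at were lower on average, by -0.23 and -0.22 (0.000866 and 0.0284), and 1426191_a_at gave -0.08 (0.415). The second Bad probe set, 1416582_a_at, gave -0.19 and -0.33 at 6 h in control and c-Fos neurons (0.276 and 0.0596). In this fit the average differences of Bak1 and Bid on their brightest probe sets had adjusted p of 0.051 and 0.0505. The Bid probe set 1448560_at was higher with c-Fos shRNA on average by 0.28 (0.0207), and 1447873_x_at gave 0.13 (0.452).

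**Figure D4:**
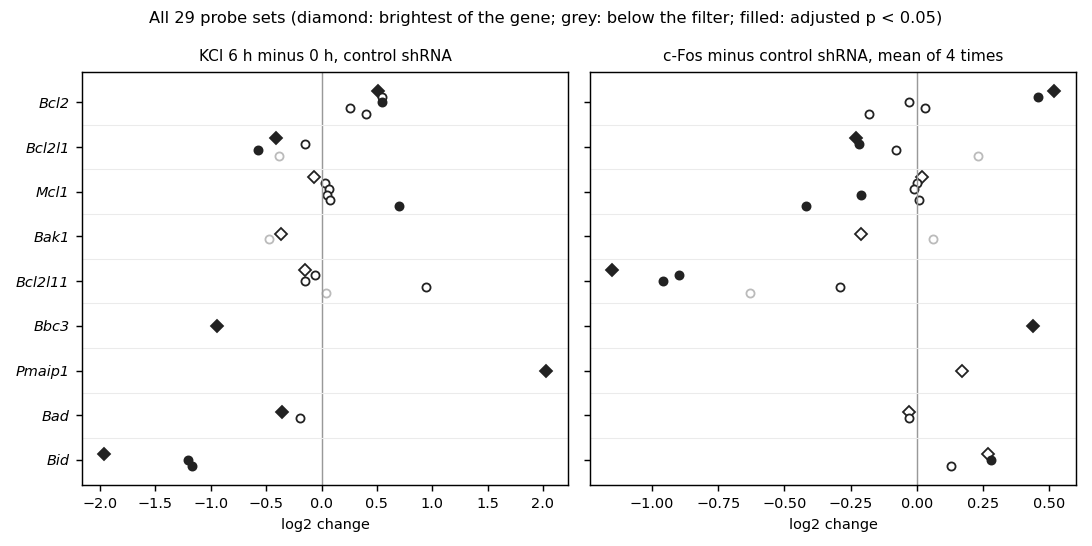
All 29 family probe sets, with the log2 change after 6 h of KCl in control neurons and the average log2 difference between the shRNAs. Adjusted p values are from the fit over probe sets, and filled symbols mark those under 0.05. The 3 Bid probe sets lay left of 0 for KCl, 3 Bcl2l11 probe sets lay near -1 for the shRNA difference, and 1426334_a_at of Bcl2l11 lay to the right for KCl.

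Around these members, lists of other genes of the pathway were counted in the same fit. Of 14 other Bcl2 family genes 8 were tested, and KCl raised 1 of them in control neurons at 6 h, Bcl2l13 by 0.21 (adjusted p = 0.0459), and none in c-Fos neurons, where 16.7% and 16.1% of all genes rose. On the average difference between the shRNAs 3 of the 8 were higher and none lower, beside 25.2% and 22.7% of all genes. Bok, a relative of Bax and Bak1, was higher by 0.57 ± 0.06 (5.98e-06) and at each of the 4 times by 0.54 to 0.59, the BH3-only Hrk by 0.44 ± 0.12 (0.00771) and Bcl2l13 by 0.32 ± 0.04 (2.94e-05).

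Of the mitochondrial apoptosis machinery, none of 19 tested genes was called at 1 h in either arm. At 6 h in control neurons 10 fell, none rose and 9 were not called, beside 27.4% and 16.7% of all genes lower and higher. The list median was -0.22, against -0.07 over all genes. In c-Fos neurons 10 fell, 1 rose and 8 were not called, beside 24.9% and 16.1%, with a median of -0.17 against -0.06. In control neurons Endog, a nuclease released from mitochondria, fell by 0.85 ± 0.11 (4.05e-05), Dffb, the apoptotic DNase, by 0.84 ± 0.20 (0.00484), Aifm1, an inner-membrane flavoprotein, by 0.72 ± 0.09 (3.19e-05), and the protease Htra2 by 0.71 ± 0.12 (0.000306). Between the shRNAs, 5 of the 19 were higher and 4 lower on average, near the shares of all genes, 25.2% and 22.7%. Diablo, which frees caspases from their inhibitors, was higher with c-Fos shRNA by 1.31 ± 0.12 (1.94e-06) and Apaf1, the scaffold of the apoptosome, by 0.95 ± 0.06 (8.21e-08). Casp9, the caspase that Apaf1 activates, was higher by 0.30 ± 0.04 (5.99e-05). The 4 lower genes, named after their values were seen, were Cycs, cytochrome c itself, by -0.25 ± 0.03 (3.66e-05), Dffa (-0.18, 0.0036), Vdac3 (-0.16, 0.000253) and Xiap (-0.08, 0.0396).

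The list of 15 regulators of the transcription of BH3-only genes also held targets of such regulators, such as Trib3. Of these 15, 4 rose and none fell at 1 h in each arm, and 11 were not called. Of all genes 2.3% rose and 0.819% fell in control neurons and 1.96% and 1.42% in c-Fos neurons. The list medians were 0.10 and -0.13. The 4 were, in control neurons, Egr1 by 4.46 ± 0.20 (2.61e-08), Cebpb by 2.02 ± 0.17 (1.12e-05), Jun by 1.45 ± 0.16 (0.000171) and Atf4, a stress regulator that can raise Pmaip1, by 0.97 ± 0.11 (0.000187). At 6 h 6 rose and none fell in control neurons, and 4 rose and 1 fell in c-Fos neurons, beside 16.7% higher and 27.4% lower of all genes in control and 16.1% and 24.9% in c-Fos neurons. One of the 15, Trib3, an Atf4 and Chop target, differed in its KCl response between the arms, by -1.92 ± 0.36 at 3 h (0.0465) and -1.87 ± 0.36 at 6 h (0.0306), where 0.402% and 1.24% of all genes did.

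Among 21 tested regulators of the family's proteins, 8 rose and none fell at 6 h in control neurons, and 7 rose and none fell in c-Fos neurons. Of all genes 16.7% rose and 27.4% fell in control and 16.1% and 24.9% in c-Fos neurons. The kinase Pim2, which can phosphorylate Bad, rose by 0.98 ± 0.16 (0.0003) in control neurons, Fbxw7 and Huwe1, ubiquitin ligases that act on Mcl1, by 0.77 ± 0.05 (4.54e-07) and 0.43 ± 0.10 (0.00495), and the kinase Akt2 by 0.55 ± 0.11 (0.000954). Huwe1 was lower with c-Fos shRNA on average by -0.63 ± 0.05 (8.62e-07), and over the list 3 of 21 were higher and 6 lower, beside 25.2% and 22.7% of all genes.

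Of 15 tested p53 targets outside the family, 6 rose and 2 fell at 6 h in control neurons, and 6 rose and 1 fell in c-Fos neurons, beside 16.7% higher and 27.4% lower of all genes in control and 16.1% and 24.9% in c-Fos neurons. In control neurons Btg2 rose by 2.35 ± 0.21 (2.62e-06), the cell-cycle inhibitor Cdkn1a by 1.95 ± 0.09 (1.81e-08) and Sesn2 by 1.87 ± 0.23 (2.99e-05), while in the same arrays the p53 targets Bbc3 and Pmaip1 of the family went down and up. On the average of the times 4 of the 15 were higher and 7 lower with c-Fos shRNA, beside 25.2% and 22.7%. Cdkn1a differed in its KCl response by -0.87 ± 0.13 at 3 h (0.0134) and -0.98 ± 0.13 at 6 h (0.00581), beside 0.402% and 1.24% of all genes. Apaf1 stands in this list and in that of the mitochondrial machinery.

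By the range of its 8 group means, Bid and Pmaip1 varied most, by 2.26 each on the log2 scale, followed by Bcl2l11 (1.54), Bbc3 (1.49), Bcl2 (1.06), Bcl2l1 (0.73), Mcl1 (0.70), Bad (0.62) and Bak1 (0.43). Bid ran from 7.89 in control neurons at 6 h to 10.16 in silenced c-Fos neurons, and Pmaip1 from 8.85 in silenced control neurons to 11.11 in c-Fos neurons at 3 h. As a description, the genes with the most similar course over the 8 group means were Mrpl41, Lysmd1 and Rnf130 for Bid (Pearson r 0.996, 0.995 and 0.995), and Nop53, 1810055G02Rik and Wasl for Pmaip1 (0.996, 0.991 and 0.99). For Bcl2l11 they were Neurod2, Add3 and Mmd (0.992, 0.989 and 0.989), and for Bbc3 Srl, Dph6 and D630045J12Rik (0.997, 0.995 and 0.993). The points are means of the same arrays, and the search ran over all tested genes.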

How the data were processed

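The authors deposited one linear intensity per probe set for each of 16 Affymetrix mouse genome 430 2.0 arrays, between 0.51 and 23935.63; per the labels' protocols the arrays had Affymetrix processing, and neither summarization software nor scaling target is named (not given in the sources used here). Medians of the arrays ran from 104.75 to 118.56. The values were taken as log2(intensity + 16) and quantile normalized, a scale that understates changes of dim genes. Of 45101 probe sets, 64 were controls, 34945 were given 1 gene by the platform annotation, 932 several and 9160 none, and 34741 of those with 1 gene matched a RefSeq gene by Entrez number. The brightest probe set stood for a gene, and genes above the 30th percentile of mean signal (log2 5.786) were tested, 13915 of 18193.

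limma 3.58.1 in R 4.3.3 fitted the 8 group means over all 16 arrays (8 residual degrees of freedom, lmFit, then eBayes with its trend option). Calls are those with an adjusted p under 0.05, by Benjamini-Hochberg over all tested genes of a contrast, and every adjusted p in the text comes from this fit unless another is named. Bracketed values without a name are, in order, the log2 value where 2 are given and the adjusted p. "On the average" is the mean of the 4 shRNA differences. The number of arrays limits the precision.

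Replicate numbers come from the labels. The difference between replicates 1 and 2 correlated over 0.1 in 28 of 28 pairs of groups (0.364 to 0.596, median 0.475), so the numbers were taken to pair the arrays; the fit with that number as a block is an alternative and is given where it changes a call. Named were all family members, Fos, and from each list at most the 4 largest called changes of a contrast. The lower genes of the mitochondrial machinery between the shRNAs were added after their values were seen. For the 4 members with the widest range, the 3 most similar genes were named as well. The members and lists were chosen with earlier results of these data known. Motifs were searched on both strands of RefSeq upstream windows. Alternatives were the added constant (1 or 64), normalization, filter, probe-set rule, block, trend, arrays fitted, and leaving out each array.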

Additional observations from a re-analysis of the deposited data

How the results depend on the processing

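Of 43 calls on family genes, 21 were past the threshold under every alternative run. A constant of 1 or 64, or a filter at the 50th percentile, changed no call on a family gene. Averaging all probe sets of a gene left 2 family genes called between the shRNAs at 0 h and 3 on the average of the times, and it gave Mcl1 an average difference of -0.10 (adjusted p = 0.0223) in place of 0.02. The fit with no intensity trend called 2 at 0 h. Fitting only the arrays compared called 1 for KCl at 1 h with c-Fos shRNA and 1 between the shRNAs at 6 h. The fit with the replicate block called 5 between the shRNAs at each of 1, 3 and 6 h and 1 (Mcl1) in the F test of the KCl response. Beside that F test it gained 14 calls over the single contrasts and lost none. It called 10.1% of all genes in that F test in place of 0.862%, and 38.8% in place of 22.3% at 0 h between the shRNAs. Leaving out 1 array at a time gave 2 to 2 members for KCl at 1 h in either arm, 4 to 6 at 3 h and 4 to 6 at 6 h with control shRNA, and 3 to 4 and 4 to 6 with c-Fos shRNA. Between the shRNAs it gave 2 to 3 at 0 h, 0 to 1 at 1 h, 1 to 4 at 3 h, 1 to 2 at 6 h and 4 to 6 on the average, and 0 to 0 for the differences of the KCl response and their F test. Where 1 array is left out, the lone array of its group is assumed to vary like the other groups. Of all calls in the difference of the KCl response at 6 h 36.6% were higher, and 24.1% when arrays were shifted to one median.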
